A study of Drosophila melanogaster with 21 samples.

Results

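The genes described here encode the cytosolic glutathione transferases and the UDP-glycosyltransferases of Drosophila melanogaster. They were taken by FlyBase symbol, as every gene whose name begins with Gst and a class letter (D, E, O, S, T or Z) or with Ugt and a family number. The rule finds 70 of the 17559 identifiers listed in each of the authors' 4 comparisons, 35 of them glutathione transferases and 35 UDP-glycosyltransferases. Polyadenylated RNA was sequenced from heads of flies aged 3 to 5 days. The groups were Crtc knockout heads after 16 hours of fasting (2 libraries), fed Crtc knockout heads (3), w1118 control heads after 16 hours of fasting (2) and fed w1118 control heads (3). The stock w1118 carries a mutation of the eye-colour gene white and is the control genotype, while Crtc, removed in the knockout, encodes a partner protein that raises transcription by CREB. The labels leave out the sex of the flies, the genetic background of the knockout and whether replicate libraries are separate cultures. The p-values therefore measure the spread of these libraries, which may be technical.

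Glutathione transferases join the tripeptide glutathione to reactive or oily molecules, such as insecticides and the aldehydes formed when lipids are oxidised. UDP-glycosyltransferases attach a sugar from a UDP-sugar to hormones, odorants, pigments and plant toxins. Both kinds of conjugate are more soluble and can be pumped out of the cell by ABC transporters. In flies this work is known mainly from the gut, the Malpighian tubules and the fat body, and some UDP-glycosyltransferases are known from the antenna. The Delta and Epsilon classes are the large insect classes, and several of their genes are known targets of cap-n-collar C, the fly counterpart of mammalian Nrf2.

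The 4 tables hold averages over libraries and no value per library. Each authors' fold is shrunken towards 0 by a normal prior, most for genes with few reads. Group means were therefore rebuilt from the base mean (the normalised count averaged over all libraries of a comparison) and the fold with that prior taken out, on the scale of the fed comparison. Each group occurs in 2 tables, and over 6238 genes the 2 estimates of a group mean lay a median of 0.0777% to 0.652% apart. These means are given for the 37 transferase genes whose base mean reached 20 in every table and whose estimates lay within 10%, and they carry no error of their own. The error of a difference is the standard error of its fold. Depth per library is unknown, and the base means of a table sum to between 3465010 and 4405826 normalised counts. Crtc had base means of 0.36 over knockout and 339.7 over control libraries in the authors' deposited tables of fasting.

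Of the 70 genes, 51 had an adjusted p in at least 1 table, 19 had a base mean under 2 in every table, and Ugt49B2 was listed at 0 throughout. Those under 2 were mostly UDP-glycosyltransferases, 14 of 35, against 5 of 35 glutathione transferases. Those 5 were 4 of the 11 Delta genes (GstD4 to GstD7) and GstE10 of the 14 Epsilon genes. All Omega (3), Sigma (1), Theta (4) and Zeta (2) genes were measured. Per kilobase of exon, GstD1, the Delta enzyme best known from insecticide work, where it breaks down DDT with the help of glutathione, stood highest in every group. Its group mean was 1043 normalised counts per kb in fasted knockout, 722 in fed knockout, 1534 in fasted control and 1238 in fed control heads. The Epsilon genes GstE12 and GstE9 came next in all 4 groups, at 672 and 745 in fasted knockout, 650 and 364 in fed knockout, 625 and 748 in fasted control and 767 and 456 in fed control heads, again per kb. GstE9 overlaps the immune gene imd and GstE12 overlaps CG3894 on the opposite strand, and nothing in the sources says whether reads were counted by strand.

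Among UDP-glycosyltransferases the levels were lower, with medians over 14 genes of 79.4 normalised counts per kb in fasted knockout, 57.4 in fed knockout, 47.9 in fasted control and 54.8 in fed control heads. Over 23 glutathione transferases these medians were 112, 80.7, 88.7 and 104, in the same order. Ugt35B1, known as an antennal enzyme, was the UDP-glycosyltransferase highest per kb in fed control heads at 225, in fasted control heads at 186 and in fed knockout heads at 139.5. In fasted knockout heads Ugt35C1 stood above it, at 157 against 150. GstS1, the Sigma enzyme known from flight muscle, reached 185 per kb in fasted knockout, 126 in fed knockout, 132 in fasted control and 116 in fed control heads. GstO2, an Omega gene that overlaps sepia (se) on the opposite strand, had group means (not per kb) of 220.7 in fasted knockout, 224.1 in fed knockout, 229.7 in fasted control and 200.4 in fed control heads. Levels of different genes were not tested against each other.

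**Figure D1:**
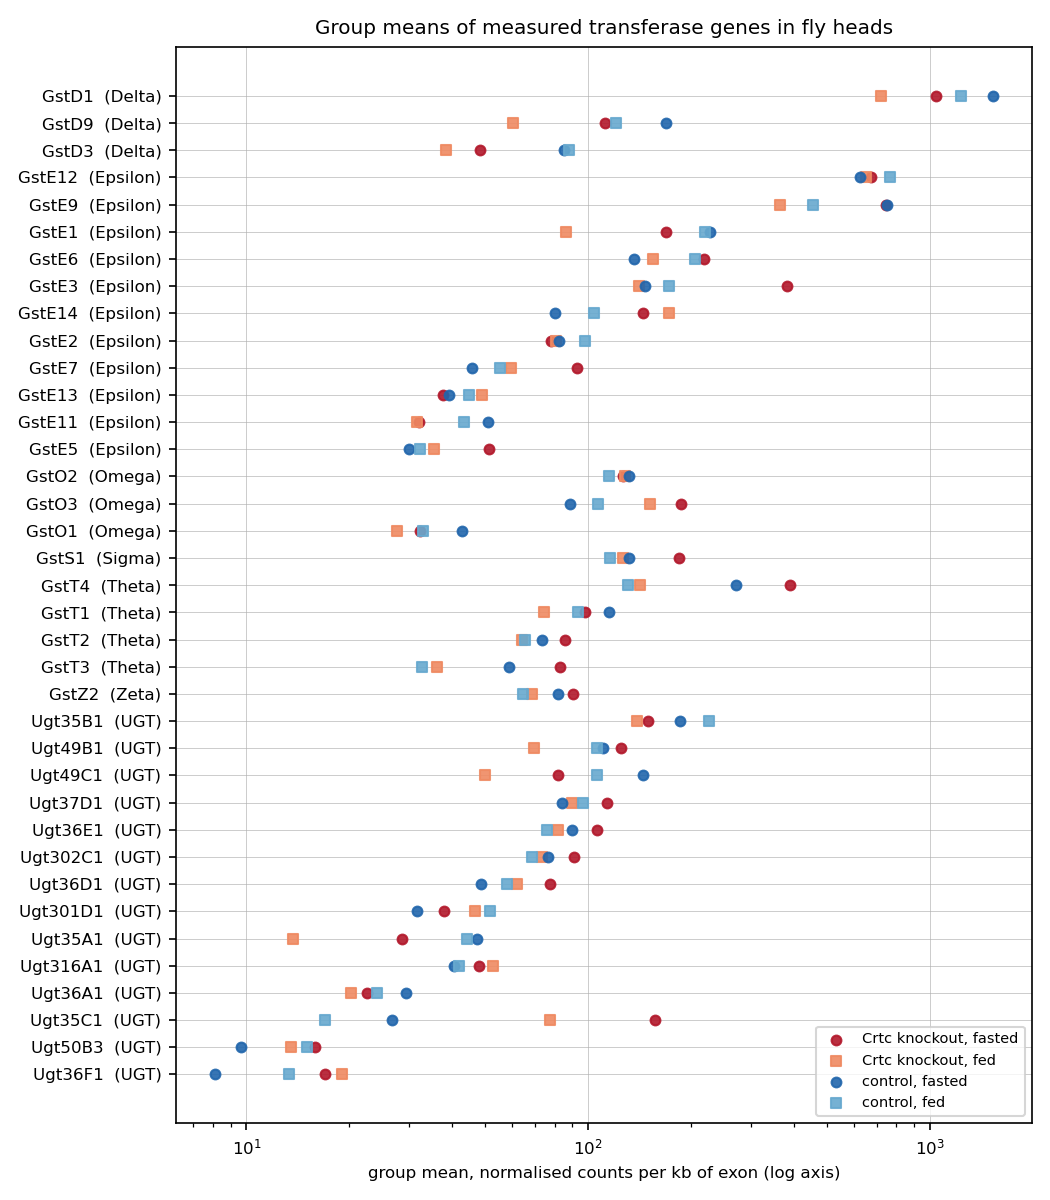
Group means of the 37 transferase genes with rebuilt means, in normalised counts per kilobase of exon on a log axis, by class; circles are fasted and squares fed heads, red shades Crtc knockout and blue shades control. GstD1 lies at the right in every group (722 to 1534), fed knockout squares lie left of the other groups for GstD9, GstE1, Ugt35A1 and Ugt49C1, and both knockout points of Ugt35C1 lie right of both control points.

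In fed heads the knockout differed from control in 13 of the 51 transferase genes tested, 10 lower and 3 higher, a share of 25.5% where 4.75% of all 10285 genes were called (2.49% lower and 2.27% higher). The lower genes were 4 of 7 Delta, 3 of 13 Epsilon and 3 of 21 UDP-glycosyltransferase genes, and the higher ones were GstE14, Ugt317A1 and Ugt35C1. No Omega, Sigma, Theta or Zeta gene was called. The median log2 fold was -0.12 over the transferases and 0.00 over all genes, and -0.68 over the Delta genes.

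The Delta enzymes are coded side by side in 1 array. GstD1 (FBgn0001149, chromosome arm 3R, 12367817 to 12369268, minus strand) had group means of 609 normalised counts in fed knockout and 1044 in fed control heads. Its log2 fold was -0.68 ± 0.19 (adjusted p = 0.0143) in the authors' deposited table. GstD9, beside it, had 47.6 in fed knockout and 94.8 in fed control heads, with a log2 fold of -0.78 ± 0.24 (adjusted p = 0.0238, authors' deposited table). For GstD3 the group means were 28.6 and 65.4 in fed knockout and fed control heads, and the authors' deposited table gives a log2 fold of -0.90 ± 0.25 (adjusted p = 0.00975). GstD2, an enzyme with few reads here, had base means of 10.8 over knockout and 39.8 over control libraries in the authors' deposited tables of fasting. It fell furthest of the class in fed knockout heads, at a log2 fold of -1.28 ± 0.29 (adjusted p = 0.000409, authors' deposited table). GstD10 and GstD11, at both ends of the array, stood at 0.10 ± 0.29 and -0.04 ± 0.28 on the log2 scale, per the authors' deposited table. Both were low, with base means between 13.8 and 25.3 in the authors' deposited tables.

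The Epsilon array on 2R (18396638 to 18409835) holds 10 genes, and its called genes were not neighbours. GstE1 (FBgn0034335, 18398393 to 18399223, plus strand) had group means of 71.5 normalised counts in fed knockout and 183 in fed control heads. It was lower in fed knockout heads, at a log2 fold of -1.10 ± 0.23 (adjusted p = 6.89e-05, authors' deposited table). GstE1 overlaps GstE10 on the other strand, and GstE10 had a base mean of at most 0.703 in the authors' deposited tables. How reads of the shared stretch were counted is not known. GstE4 and GstE8, both with few reads, were lower in fed knockout heads at log2 folds of -1.02 ± 0.29 and -0.86 ± 0.27 (adjusted p = 0.0114 and 0.0339, authors' deposited table). Between them lie GstE5, GstE6 and GstE7, at 0.09 ± 0.27, -0.35 ± 0.19 and 0.08 ± 0.24 (log2, authors' deposited table), none of them called. GstE14, encoded elsewhere on 2R and known as noppera-bo, is needed for ecdysteroid synthesis. Its group mean was 174.5 in fed knockout and 105 in fed control heads. The log2 fold of GstE14 was 0.64 ± 0.19 (adjusted p = 0.0146, authors' deposited table).

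**Figure D2:**
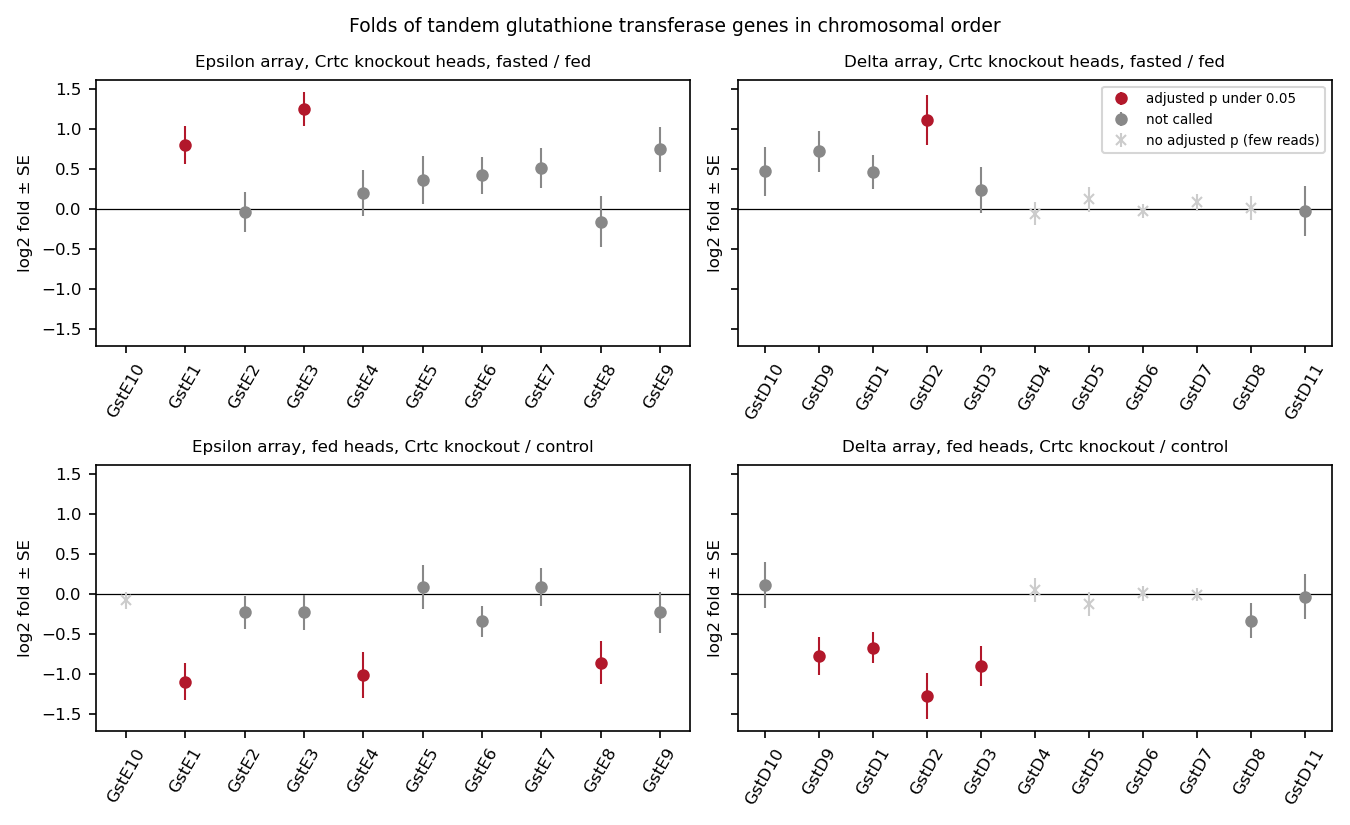
Log2 folds ± standard error of the 10 Epsilon and 11 Delta genes in chromosomal order, in knockout heads fasted over fed (upper panels) and in fed heads knockout over control (lower panels); red points have an adjusted p under 0.05, grey points do not, pale crosses have no adjusted p, and GstE10 has no fold in the upper panel. In fed heads GstD9, GstD1, GstD2 and GstD3 lie between -1.28 and -0.68 in a row, whereas in the Epsilon array GstE1, GstE4 and GstE8 are set among uncalled neighbours.

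Among UDP-glycosyltransferases, Ugt35C1 (FBgn0040256, 3R, 11126597 to 11128328, minus strand) showed the largest difference in either family. Its group means were 263 normalised counts in fasted knockout, 129 in fed knockout, 44.7 in fasted control and 28.5 in fed control heads. The log2 fold of knockout over control was 2.18 ± 0.25 in fasted and 1.73 ± 0.23 in fed heads (adjusted p = 2.18e-15 and 1.92e-11, authors' deposited tables). Both knockout means exceeded both control means. Ugt35A1 and Ugt35B1 of the same family, which lie next to each other at a distance from Ugt35C1 on 3R, were lower in fed knockout heads. Ugt35A1 had group means of 24.4 in fed knockout and 78.7 in fed control heads, and a log2 fold of -1.33 ± 0.24 (adjusted p = 1.44e-06, authors' deposited table). Ugt35B1 had 233 in fed knockout and 377 in fed control heads. Its log2 fold was -0.62 ± 0.18 (adjusted p = 0.0215, authors' deposited table). Orco, the coreceptor of olfactory neurons and 1 of 4 antennal markers listed, was lower in fed knockout heads too, at a log2 fold of -1.21 ± 0.28 (adjusted p = 0.000624, authors' deposited table). The other 3 antennal markers, lush, Obp83a and Obp83b, were not called and had base means of at most 4.42 in the authors' deposited tables. The part of the antennal tissue in the Ugt35B1 values was not tested. Ugt49C1 had group means of 94.5 in fed knockout and 201 in fed control heads, and its log2 fold was -0.94 ± 0.20 (adjusted p = 0.000137, authors' deposited table). Ugt317A1, with few reads, was higher by 0.84 ± 0.26 in fed knockout heads (adjusted p = 0.0332, authors' deposited table). Just outside the threshold stood Ugt49B1, the neighbour of Ugt49C1, at -0.54 ± 0.18 (adjusted p = 0.0565), and just inside it stood GstE8 (authors' deposited table).

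In these fed heads 2 of 3 fat body markers tested, Lsp2 and Lsp1beta, were higher in the knockout. So were 1 of 4 photoreceptor markers (ninaE), 1 of 2 haemocyte markers tested (NimC1) and 1 of 2 oenocyte markers (FASN2). Of 3 muscle, 4 neuronal and 4 glial markers 0 were called, and the part of these cell types in the transferase values was not tested. Fewer cells of a type and less RNA per cell cannot be told apart in whole heads. Digestive tract markers gave no sign of gut, with 3 of 4 listed at 0 and a summed base mean of at most 0.524 in the authors' deposited tables. With a threshold of 0.01 the number of transferase genes called in fed heads was 6, and 8 among genes whose base mean reached 50. The shares of all genes called under these settings are not given here.

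In fasted heads 4 of 49 transferase genes differed between the knockout and control, 3 higher and 1 lower (8.16%), where 5.39% of all 9917 genes were called (3.43% higher and 1.97% lower). GstE3 (FBgn0063497, 2R, 18400713 to 18401467, plus strand) had group means of 288 normalised counts in fasted knockout and 111 in fasted control heads, with a log2 fold of 1.22 ± 0.23 (adjusted p = 8.54e-06, authors' deposited table). GstO3, an Omega-class gene, had 164 in fasted knockout and 78.2 in fasted control heads. Its log2 fold was 0.91 ± 0.26 (adjusted p = 0.0111, authors' deposited table). Ugt35C1 was the third higher gene. Ugt49C1 was lower, with group means of 155 in fasted knockout and 274 in fasted control heads and a log2 fold of -0.74 ± 0.22 (adjusted p = 0.0224, authors' deposited table). The gene nearest to the threshold outside it was Ugt37B1 at -1.03 ± 0.35 (adjusted p = 0.0633, authors' deposited table).

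The 13 genes called in fed heads all had a fold of the same sign in fasted heads, though only Ugt35C1 and Ugt49C1 were called in both comparisons, which share no library. The same counts over all genes called in fed heads are not given here, so nothing particular to the transferases is read from them. The called Delta genes stood between -0.62 and -0.51 in fasted heads, none of them called, in the authors' deposited table. GstE1 stood at -0.38 ± 0.24 and Ugt35A1 at -0.59 ± 0.28 in fasted knockout over control heads (adjusted p = 0.684 and 0.34, authors' deposited table). A missed threshold there does not show that their levels were alike. Muscle markers were higher in 3 of 3 and fat body markers in 3 of 3 genes tested in fasted knockout over control heads. Their summed group means were 8001 and 4622 normalised counts (muscle, fasted knockout and fasted control heads) and 8309 and 4211 (fat body, 3 of 4 listed markers), and their part in the transferase values was not tested.

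**Figure D3:**
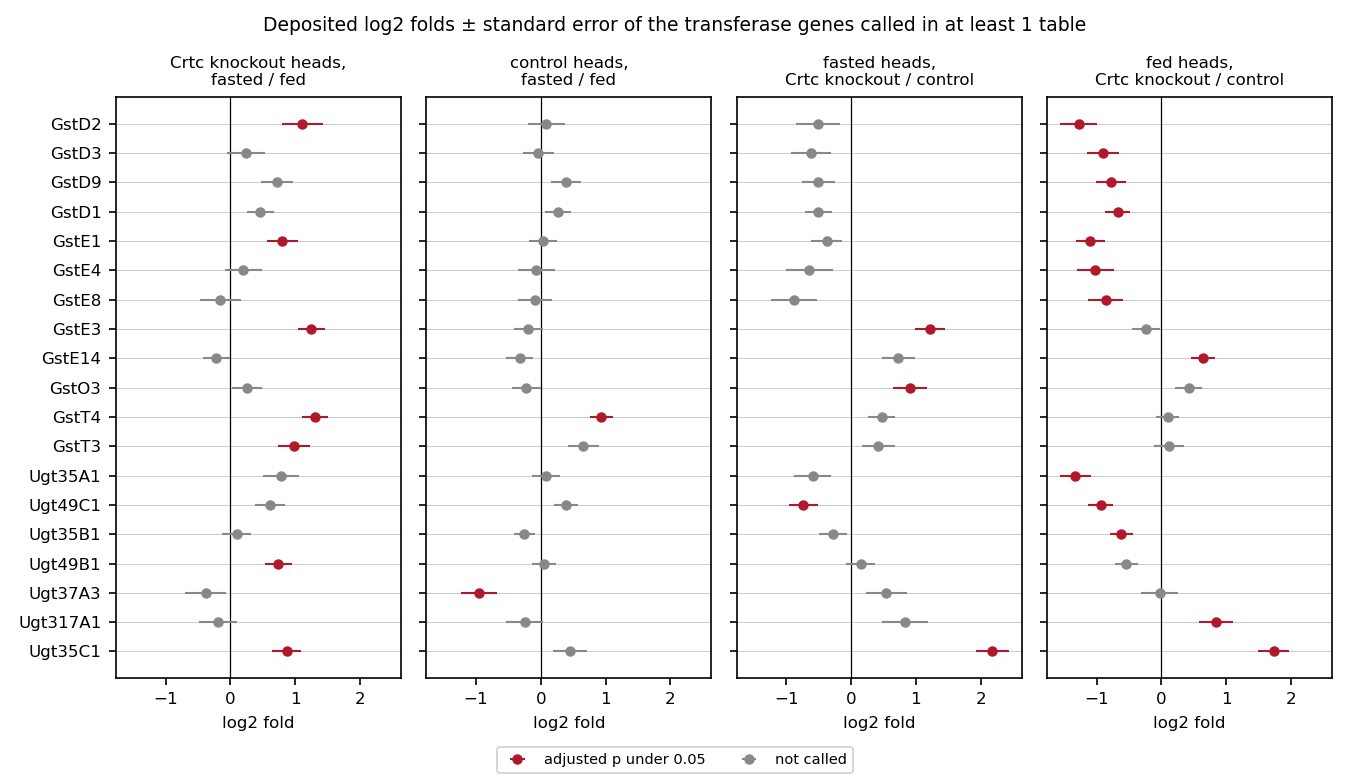
Log2 folds ± standard error in the authors' 4 tables for the 19 transferase genes called in at least 1 of them, ordered by class; red points have an adjusted p under 0.05 and grey points do not. The fed panel at the right holds 10 red points left of 0 and 3 right of 0, and in both knockout over control panels Ugt35C1 lies farthest right, at 2.18 in fasted and 1.73 in fed heads.

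Fasting raised 7 of 49 transferase genes in knockout heads and lowered none, a share of 14.3% where 3.26% of all 10037 genes were called (2.76% higher and 0.498% lower). In control heads it raised GstT4 and lowered Ugt37A3 among 48 tested (4.17%), where 3.84% of all 9361 genes were called (2.19% higher and 1.65% lower). The median log2 fold over the transferases was 0.26 in knockout and 0.04 in control heads, against -0.02 and -0.01 over all genes. The 7 genes that rose in the knockout were the Theta genes GstT4 and GstT3, the Epsilon genes GstE3 and GstE1, the Delta gene GstD2, and Ugt35C1 and Ugt49B1. At a threshold of 0.01, 4 of them were called in knockout heads, and GstT4 alone in control heads. The share of all genes called at 0.01 is not given here.

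GstT4 (FBgn0030484, chromosome X, 13404749 to 13409323, plus strand), a Theta-class enzyme, was the gene called in both genotypes. Its group means were 477 normalised counts in fasted knockout against 173 in fed knockout heads, and 330 in fasted control against 160 in fed control heads. The log2 folds were 1.30 ± 0.20 in knockout and 0.93 ± 0.18 in control heads (adjusted p = 1.4e-08 and 1.76e-05, authors' deposited tables). Each fasted mean exceeded each fed mean. GstT3, also on X, had 114 in fasted knockout against 49.4 in fed knockout heads, and 80.1 in fasted control against 44.6 in fed control heads. Its folds were 0.98 ± 0.24 in knockout and 0.66 ± 0.23 in control heads (adjusted p = 0.00279 and 0.102, authors' deposited tables). The remaining Theta genes GstT1 and GstT2, a tandem pair on 2R, had log2 folds of 0.32 ± 0.26 each in knockout heads, not called in the authors' deposited table. GstZ2, a Zeta enzyme of the class that isomerises maleylacetoacetate in tyrosine breakdown, stood at 0.36 ± 0.20 in knockout and 0.29 ± 0.19 in control heads, called in neither of the authors' deposited tables.

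GstE3 rose in knockout heads, with group means of 288 in fasted against 107 in fed knockout heads, while control heads had 111 when fasted and 131 when fed. The fasted knockout mean thus stood apart from the other three. Its log2 fold was 1.25 ± 0.21 in knockout and -0.19 ± 0.23 in control heads (adjusted p = 5.53e-07 and 0.998, authors' deposited tables). The responses differed by 1.44 ± 0.31 (knockout minus control, log2) with an adjusted p of 0.000988 from a normal reference over the 8474 genes whose base mean reached 10 in each fasting table. Under a t distribution on 6 degrees of freedom the adjusted p of this difference was 0.99, and over the other alternatives it lay between 0.000764 and 0.00187. GstE3 was the one transferase called among 44 tested for the difference, where 0.802% of all genes were called (0.696% higher and 0.106% lower in the sense of knockout minus control). GstE6, 3 genes further along the array and known to act on lipid aldehydes, followed at 0.94 ± 0.30 (adjusted p = 0.16). It had group means of 164 in fasted and 117 in fed knockout heads, and of 102 in fasted and 154 in fed control heads. GstE2 and GstE4, the direct neighbours of GstE3, had log2 folds of -0.04 ± 0.24 and 0.20 ± 0.29 in knockout heads, neither called in the authors' deposited table. Muscle markers were called in 0 of 3 genes and fat body markers were lower in 2 of 3 in fasted over fed knockout heads, where GstE3 rose. Of 4 glial markers Gs2 was higher there at 0.49 ± 0.15, and of 2 haemocyte markers tested Hml was lower at -1.31 ± 0.26 (adjusted p = 0.0479 and 4.82e-05, authors' deposited table). In control heads 3 of 3 markers tested of muscle and of fat body were lower after fasting, Hml was lower at -1.23 ± 0.25 and 0 of 4 glial markers were called (authors' deposited table). The responses of the muscle markers differed in the direction of GstE3, by 0.95 ± 0.25 for Mlc2, 0.79 ± 0.25 for up and 0.52 ± 0.28 for Mhc (adjusted p = 0.0168, 0.135 and 1.00 by the normal reference). For fat body the differences were 0.87 ± 0.31 (apolpp), 0.71 ± 0.33 (Lsp1beta) and -0.17 ± 0.36 (Lsp2). For glia they were 0.59 ± 0.22 (Gs2), 0.44 ± 0.26 (moody), 0.21 ± 0.27 (Eaat1) and 0.12 ± 0.30 (repo). Cyp4g1 and FASN2, the oenocyte markers, differed by 1.33 ± 0.40 and -1.01 ± 0.41, with few reads. FASN2 was not tested for the difference, since its base mean in control heads was 5.99, below the filter of 10. Differences of neuronal and photoreceptor markers lay between -0.40 and -0.11. Among the marker differences tested, Mlc2 alone was called, by the same normal reference as GstE3 and in the same direction. Under the t distribution neither passed. The part of these cell types in the GstE3 values was not tested.

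GstD2, GstE1 and Ugt49B1 rose after fasting in the knockout, and that comparison shares its fed knockout libraries with the fed comparison, where their log2 folds were -1.28, -1.10 and -0.54 (authors' deposited table, Ugt49B1 not called). GstE1 had group means of 141 normalised counts in fasted knockout, 71.5 in fed knockout, 189 in fasted control and 183 in fed control heads. Fasting changed it by a log2 fold of 0.80 ± 0.24 in knockout and 0.03 ± 0.22 in control heads (adjusted p = 0.0334 and 0.998, authors' deposited tables). Ugt49B1, which overlaps CG44245 on the opposite strand, had 219 in fasted knockout, 122 in fed knockout, 194 in fasted control and 187 in fed control heads. The log2 fold of Ugt49B1 was 0.74 ± 0.21 in knockout and 0.05 ± 0.18 in control heads (adjusted p = 0.018 and 0.998, authors' deposited tables). GstD2 rose by 1.11 ± 0.31 in fasted knockout heads and stood at 0.08 ± 0.28 in control heads (adjusted p = 0.0161 and 0.998, authors' deposited tables). GstD9, just outside the threshold in knockout heads, stood at 0.72 ± 0.25 (adjusted p = 0.109, authors' deposited table). Of the 4 group means, that of fed knockout heads was the lowest for both GstE1 and Ugt49B1. None of the 3 differences between the genotypes' responses was called, at 0.76 ± 0.33 for GstE1, 0.69 ± 0.28 for Ugt49B1 and 1.03 ± 0.42 for GstD2 (adjusted p = 0.772, 0.597 and 0.661).

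Ugt35C1 rose by 0.87 ± 0.22 in fasted knockout heads and stood at 0.45 ± 0.26 in control heads (adjusted p = 0.00535 and 0.761, authors' deposited tables). Ugt37A3 fell in fasted control heads, at a log2 fold of -0.95 ± 0.28 (adjusted p = 0.0179, authors' deposited table) and had a base mean of 10.5, so few reads lie behind it. Its log2 fold was -0.38 ± 0.31 in knockout heads in the authors' deposited table. GstE9, an abundant Epsilon gene, was nearest to the threshold in control heads at 0.60 ± 0.21 (adjusted p = 0.0901) and stood at 0.75 ± 0.28 in knockout heads (adjusted p = 0.182) in the authors' deposited tables. Its group means were 587 in fasted against 287 in fed knockout heads, and 589.5 in fasted against 359 in fed control heads. GstE12, the other abundant Epsilon gene, had log2 folds of 0.05 ± 0.20 in knockout and -0.27 ± 0.16 in control heads in the authors' deposited tables.

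Of the 48 transferase genes with an adjusted p in both fasting tables, 39 (81.25%) had the larger fold in knockout heads, against 48.19% of all genes. The fold was above 0 for 35 of them in knockout and for 25 in control heads, above 0 in both for 22 and below 0 in both for 10. Knockout folds are taken over the fed knockout libraries, where 10 of the 13 transferase genes called against fed control heads were lower. The count of 39 is thus not independent of the fed comparison. Over the 16 UDP-glycosyltransferases tested for the difference its median was 0.35, and over the 28 glutathione transferases 0.23. Genes of 1 array are not independent of each other, and 50 of the 70 lie in 11 arrays of 2 to 11 members. The labels tie fed library 3 of either genotype to another processed table than the other libraries, one with fed heads only. They name no batch, and anything particular to those libraries cannot be told apart from feeding here.

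**Figure D4:**
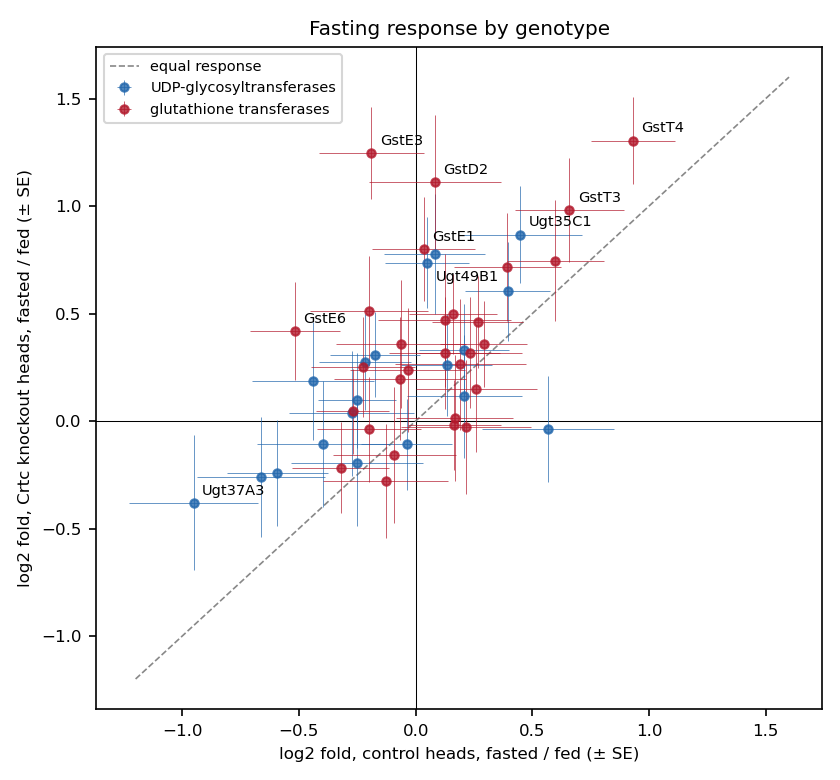
Log2 fold of fasted over fed heads in the Crtc knockout (vertical axis) against control (horizontal axis) for the 48 transferase genes tested in both, with standard errors; red points are glutathione transferases, blue points UDP-glycosyltransferases, and the dashed line marks equal responses. Of these points 39 lie above the line, GstE3 (1.25 in knockout, -0.19 in control) far from it, and GstT4 is high on both axes.

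Other genes of the conjugation pathway were read from 6 lists. Glutathione supply (Gclc, Gclm, Gss1, Gss2, Ggt-1 and Trxr1) had 4 or 5 of its 6 genes tested and 0 called in each of the 4 comparisons. No call was made either for the 5 glutathione transferase-like genes outside the naming rule (Mgstl, se, gfzf, Clic and eEF1gamma), all of them tested. Among 6 regulators of the xenobiotic response, Keap1, the inhibitor that holds back cap-n-collar C, rose by 0.73 ± 0.23 in fasted knockout heads (adjusted p = 0.0408, authors' deposited table). In control heads Keap1 stood at 0.18 ± 0.21 (authors' deposited table), and the difference of 0.55 ± 0.31 between the fasting responses was not called. The gene of cap-n-collar C itself, cnc, had log2 folds between -0.04 and 0.32 in the authors' deposited tables and was called in none. Of 3 genes of UDP-sugar supply, sgl, whose enzyme makes UDP-glucuronate from UDP-glucose, was lower in fasted knockout over control heads, at a log2 fold of -0.89 ± 0.23 (adjusted p = 0.00333, authors' deposited table). Between fed heads sgl stood at -0.46 ± 0.18 (adjusted p = 0.145, authors' deposited table).

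Of 6 exporter genes, Mdr49 and Mdr65 were called. Mdr49, an ABC transporter of the P-glycoprotein type, rose by 1.08 ± 0.18 in fasted knockout heads and stood at -0.57 ± 0.20 in control heads (adjusted p = 5.41e-07 and 0.0992, authors' deposited tables). In fasted heads it was higher in knockout than in control by 2.08 ± 0.22 (adjusted p = 1.52e-18, authors' deposited table). Its group means were 439.6 normalised counts in fasted knockout, 193 in fed knockout, 86.8 in fasted control and 137 in fed control heads. The fasting responses differed by 1.65 ± 0.27 for Mdr49 and by 0.82 ± 0.31 for Mdr65 (knockout minus control, log2, adjusted p = 1e-06 and 0.469 by the normal reference). Under the t distribution 0 of the 8474 genes passed, Mdr49 included. Mdr65, the exporter of the blood-brain barrier, was lower in fed knockout over fed control heads at -0.92 ± 0.21 and in fasted over fed control heads at -0.84 ± 0.18 in the authors' deposited tables, which share the fed control libraries (adjusted p = 0.00066 and 0.000291). The last list holds 6 P450 genes of the first detoxification step and Cpr, which encodes the reductase that passes electrons to P450 enzymes and was called in no comparison. Cyp6a2, Cyp6a8, Cyp6g1 and Cyp6w1 rose after fasting in both genotypes, by 0.83 ± 0.23, 1.97 ± 0.29, 1.25 ± 0.27 and 1.21 ± 0.25 in knockout and by 1.01 ± 0.21, 2.08 ± 0.25, 1.00 ± 0.22 and 1.19 ± 0.17 in control heads (authors' deposited tables). Their folds differed between the genotypes by at most 0.25. Cyp12d1-p, with few reads and a near-identical copy, Cyp12d1-d, listed at 0, was higher in fasted knockout than control heads at 1.02 ± 0.32 (adjusted p = 0.0298, authors' deposited table).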

How the data were processed

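RNA of heads of Crtc knockout and w1118 control flies, fasted or fed, was compared through 4 tables. Of the software, the submitters' processing notes list DESeq2, Cuffdiff, STAR and TopHat2, and as builds dm3 and dm6. Roles, versions and counting method are not given in the sources used here. Per the file headers, the authors deposited for each gene a base mean (a signal: normalised counts averaged over libraries), a log2 fold change with its standard error, a Wald score, a p-value and an adjusted p-value. They hold no values per library, so no test was refitted, and 0.05 on the authors' adjusted p (DESeq2, per the table names) is the threshold for a call. The normal prior behind the shrunken folds has as its SD 2 times the ceiling of the standard errors; it was taken out of each fold, and group means follow from the result and the library numbers. The difference of the fasting responses was divided by the root of their summed squared standard errors and given a normal p (two-sided, Benjamini-Hochberg, scipy 1.17.1, pandas 2.3.3). Symbols (for 17253 of 17559) and positions come from Ensembl release 115 (BDGP6.54), used for names, exon lengths and where a gene lies. Library numbers in the tables' names differ from those in the labels, which was read as a renumbering. Arrays are transferase genes within 20 kb of the next. Alternatives were a threshold of 0.01, base mean filters, re-centred and unshrunken folds, a t distribution, and the difference taken from the knockout over control tables. Bodies and CREB and sik2 mutants are not analysed here. Named are all transferases called in any comparison, the most abundant by class, those beside the threshold, and called pathway genes; Orco, cnc, GstZ2, GstT1, GstT2 and uncalled array neighbours were added after their values were seen. The genes and lists were chosen with earlier results of these data known.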

Additional observations from a re-analysis of the deposited data

Results flagged for a closer look

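The fasting response of GstE3 differed between the genotypes by 1.44 on the log2 scale (knockout minus control), by a test of the difference itself. It rose in knockout heads and was not called in control heads. The call rests on a normal reference, as given with the result.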

How the results depend on the processing

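No paired analysis was possible because the tables carry no value per library, and for the same reason no replicate could be left out. The number of transferase genes called at a threshold of 0.01 was 1 in control fasting, 4 in knockout fasting, 2 in fasted and 6 in fed knockout over control heads, against 2, 7, 4 and 13 at 0.05. Among genes whose base mean reached 50 it was 1 in control fasting, 6 in knockout fasting, 4 in fasted and 8 in fed knockout over control heads, since fewer genes were tested. Shares of all genes in these 4 comparisons are given at 0.05 only, so these counts are not set against a share. For the difference of the fasting responses, 0 were called under a t distribution on 6 degrees of freedom, where 0 of 8474 genes passed, and 6 of 44 transferase genes had an unadjusted p under 0.05 by the normal reference, beside 4.118% of all genes. No filter on low counts, re-centring (shifts of at most 0.02) and, for the difference, unshrunken folds or the knockout over control tables gave the same number of calls as the settings reported. The medians moved by less than the median standard error in each alternative run. Of the 27 calls of single genes, 20 were of genes whose base mean reached 50, 13 were lost at 0.01 and GstE3's difference under the t distribution, and none changed direction in the alternatives run. Unknown depth, 2 fasted libraries a group and shrunken folds limit the genes with few reads most.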
